A study of Mus musculus with 3 samples.

Results

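The Trim genes code for tripartite motif proteins. The set described here holds every mouse gene whose symbol is Trim followed by digits and an optional letter, except Trim25 and Trim28, which were left out by the rule. It came to 59 of the 19057 named genes on the array, each represented by its probe of highest mean signal, and 23 of the 59 were detected in at least 1 group. The RNA came from NIH/3T3 cells, an immortal line of mouse fibroblasts, profiled on Illumina expression bead arrays in 3 groups of 1 deposited column each. Cells of the mock group were mock treated, cells of the 5aza-dC group received 1 µM 5aza-dC (decitabine) for 3 days with daily renewal, and cells of the recovery group had the same exposure and then 14 days without drug. All groups were the same line in the same serum-containing medium, and 5aza-dC is a nucleoside drug that replicating DNA takes up and that traps DNA methyltransferases there. The study's text speaks of duplicate independent experiments, but the sources used here do not say whether the 2 arrays behind each column are those experiments or repeats of 1 RNA, so the p-values speak of the spread between arrays only, which may be technical.

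A typical Trim protein carries a RING domain, 1 or more B-box zinc fingers and a coiled coil, followed by a C-terminal part that sets its partners. The RING domain recruits ubiquitin-loaded E2 enzymes, and many members act as E3 ubiquitin ligases, while some members lack the RING. Part of the family is induced by interferon and takes part in antiviral defence, and other members act on microtubules, on RNA, on chromatin or in muscle.

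The promoters of 5 interferon-responsive members that were higher in 5aza-dC are shown first, because the results below turn on these genes. The sequences are those of RefSeq on build GRCm38.p6 and run from 250 bases before the transcription start to 50 bases after it, on the strand of the gene. Capitals mark matches to GAAA, any 2 bases and GAAA again, the core of the interferon-stimulated response element (ISRE), in either orientation.
Trim21 (chr7:102565433-102565732, minus strand): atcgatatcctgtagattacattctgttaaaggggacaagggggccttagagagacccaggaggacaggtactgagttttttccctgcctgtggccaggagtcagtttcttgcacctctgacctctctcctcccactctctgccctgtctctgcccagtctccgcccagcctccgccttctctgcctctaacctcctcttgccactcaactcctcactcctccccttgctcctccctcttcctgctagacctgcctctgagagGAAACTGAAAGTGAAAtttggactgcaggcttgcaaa
Trim34a (chr7:104244207-104244506, plus strand): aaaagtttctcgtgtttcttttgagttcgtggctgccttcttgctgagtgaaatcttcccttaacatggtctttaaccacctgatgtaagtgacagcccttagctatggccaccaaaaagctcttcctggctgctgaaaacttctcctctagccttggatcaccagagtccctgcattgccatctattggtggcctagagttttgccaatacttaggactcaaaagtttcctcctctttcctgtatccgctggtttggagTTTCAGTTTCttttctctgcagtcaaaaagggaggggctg
Trim30d (chr7:104507800-104508099, minus strand): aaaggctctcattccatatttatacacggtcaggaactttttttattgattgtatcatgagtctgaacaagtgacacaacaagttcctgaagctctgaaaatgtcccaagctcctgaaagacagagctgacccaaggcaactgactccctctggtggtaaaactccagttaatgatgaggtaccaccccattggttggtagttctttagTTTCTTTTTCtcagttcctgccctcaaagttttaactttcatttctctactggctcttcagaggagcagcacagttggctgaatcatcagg
Trim26 (chr17:36836896-36837195, plus strand): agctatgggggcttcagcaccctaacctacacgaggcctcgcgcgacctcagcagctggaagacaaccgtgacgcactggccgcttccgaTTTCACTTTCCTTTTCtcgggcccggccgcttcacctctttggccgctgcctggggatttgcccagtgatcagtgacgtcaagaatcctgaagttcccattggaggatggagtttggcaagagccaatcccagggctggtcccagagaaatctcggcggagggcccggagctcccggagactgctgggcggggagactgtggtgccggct
Trim56 (chr5:137116158-137116457, minus strand): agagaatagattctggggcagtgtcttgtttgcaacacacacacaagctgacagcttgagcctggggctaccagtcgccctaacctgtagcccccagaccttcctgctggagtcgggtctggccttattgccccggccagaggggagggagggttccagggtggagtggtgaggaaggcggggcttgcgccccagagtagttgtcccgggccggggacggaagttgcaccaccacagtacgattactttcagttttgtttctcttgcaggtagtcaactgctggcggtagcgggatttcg

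The Trim21 window holds 2 overlapping matches, at positions 264 and 270 of the window on the gene's own strand, just past the transcription start. The Trim34a match starts at position 261 in the reverse orientation, also past the start. The Trim30d match starts at position 210 and the overlapping Trim26 matches at positions 91 and 97, all reversed and upstream of the start. The Trim56 window holds no match. Of all 32851 promoter windows in the table, 3.44% hold at least 1 match on either strand. Promoters were listed for 46 of the 59 members, in 60 windows, of which 8 hold a match. Among members that rose in 5aza-dC, 7 have a listed promoter and 4 of these hold a match. Trim34a, Trim30d and Trim46, among the 7, were tested through 5aza-dC alone, so this count does not stand as support. It also counts members with a match in any window, where 3.44% is a share of windows. Of the 5 members that fell with a listed promoter, Trim2 holds a match in 1 of its windows. None of the 5 listed members that did not pass the test holds one, and 2 of the 29 undetected members do, Trim12c at position 222 and Trim30a at positions 215 and 253. Matches to TTCNNNGAA, the core of the gamma-activated sequence, occur in 8.30% of all windows, in 1 of the 7 listed members that rose (Trim46), in 0 of the 5 that fell, in 1 of the 5 that did not pass (Trim45) and in 3 of the 29 undetected. Windows of Trim21 and Trim34a hold 3 CpG sites each and that of Trim30d holds 1, against a median of 7 over all windows with quartiles of 3 and 20. Those of Trim56 and Trim26 hold 12 and 19 CpG sites, and that of Trim44 holds 46. A match describes the letters only, and binding and methylation were not measured here.

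Over 45281 probes the median deposited signal was 63.8 (mock), 61.2 (5aza-dC) and 61.1 (recovery), and 8981 named genes were detected in at least 1 group. Detection means a deposited detection p-value below 0.01. Each column proved to be a mean of 2 arrays, whose values were solved from the deposited tables and normalized together. Levels are log2 values after background correction and quantile normalization. The mock pair was the least alike, with an SD of 0.218 for the log2 differences between its arrays over the genes tested, against 0.144 for the 5aza-dC pair and 0.165 for the recovery pair. The words rose, fell, higher and lower are kept for genes for which limma gave a Benjamini-Hochberg adjusted p below 0.05 over all 8981 genes. A gene is called where it also differed by at least 2-fold. Differences are log2 ± SE with n = 2 arrays per group. The numbers 1 and 2 of the arrays are names only and pair nothing between groups. With 2 arrays per group, a lack of overlap sets no member apart. It held for 22 of the 23 detected members between 5aza-dC and mock and for 19 in each of the other comparisons. Trim41 and Trim45, which did not pass the test, were among the 22, and the share over all genes was not taken. Where a gene was not detected in the dimmer group, its fold is a lower bound. That bound sets the brighter group's mean against the dim group's mean of, on each array, the higher of the gene's own level and the lowest level among detected probes. Levels of different genes come from different probes and are not compared. In RNA of whole cultures, fewer cells with a transcript and less RNA per cell cannot be told apart.

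Setting 5aza-dC against mock shows how expression differed after 3 days of the drug, with DNA methylation itself not measured. Of the 23 detected Trim genes, 10 rose, and they were led by Trim21, Trim34a, Trim26 and Trim30d. Another 8 fell, among them Trim16, Trim27 and Trim71, and 5 did not pass the test. The share that rose was 43.5% of the detected members, where 30.1% of all genes tested rose. The share that fell was 34.8%, where 27.1% of all genes fell. Trim34a, Trim30d, Trim29 and Trim46 were tested only because 5aza-dC, where they were high, detected them. Trim71, among those that fell, was tested through mock alone, where it was high. Neither share is therefore a measure of the family. Among the 15 members detected in all 3 groups, 4 rose and 7 fell (26.7% and 46.7%), where 27.8% and 29.8% of the 7737 genes so detected did. At the 2-fold rule 4 of the 23 members were called higher, against 6.64% of all genes, and 0 were called lower, against 2.51%. Trim34a and Trim30d, among the 4, were tested through 5aza-dC alone, so this count is no measure of the family either. Among the 15 members detected in all 3 groups, 1 was called higher, where 367 of the 7737 genes so detected were. In other settings 1 member was called lower, Trim27 with the mean of all detected probes (-1.10) and Trim16 without mock array 2 (-1.04). The 2-fold rule aside, 8 members passed limma in the lower direction. The median difference of the detected members was 0.02, against 0.01 over all genes with quartiles of -0.31 and 0.36, and the members ranged from -0.91 to 2.88. With the arrays scaled to the median of all probes in place of quantile normalization, 4 members passed, Trim21, Trim34a and Trim30d higher and Trim16 lower, and the median difference of all genes moved to -0.11.

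**Figure D1:**
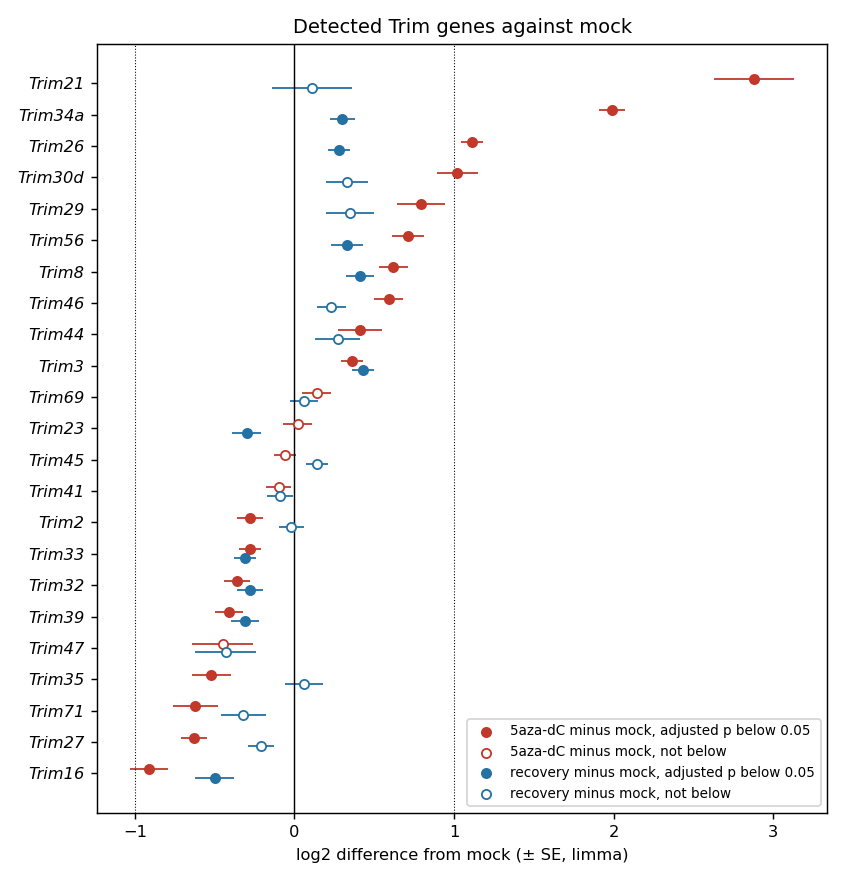
Log2 difference from mock (x axis, ± SE from limma, 2 arrays per group) of the 23 detected Trim genes, in 5aza-dC (red) and in recovery (blue), with filled points where the adjusted p is below 0.05 and dotted lines at a 2-fold difference. Trim21, at 2.88 in 5aza-dC, stands at 0.11 in recovery, and no recovery point reaches a dotted line.

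Trim21 is the cytosolic antibody receptor that marks antibody-coated viruses for the proteasome. Its levels were 4.76 and 5.11 on the mock arrays, 7.79 and 7.85 on the 5aza-dC arrays, and 4.64 and 5.44 on the recovery arrays. Both 5aza-dC arrays lay far above all others, and the mock and recovery arrays overlapped. It rose by 2.88 ± 0.25 in 5aza-dC (7.39-fold, limma adjusted p = 1.35e-04). Its mock signal of 80.0 was close to background, with a detection p-value of 0.00855.

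Trim34a belongs to the group of Trim genes on mouse chromosome 7 that also holds Trim5, Trim6, the Trim12 genes and the Trim30 genes. Its levels were 4.20 and 4.34 in mock, 6.23 and 6.29 in 5aza-dC, and 4.54 and 4.59 in recovery. Only 5aza-dC detected it, at a signal of 121.3 against 61.4 in mock and 65.5 in recovery. It rose at least 2.99-fold (limma adjusted p = 7.19e-06). Trim30d, another gene of this cluster and a relative of the NF-kB regulator Trim30a, stood at 4.29 and 4.37 in mock, 5.47 and 5.21 in 5aza-dC, and 4.81 and 4.51 in recovery. Again only 5aza-dC detected it, without overlap with the other groups, and it rose at least 1.58-fold (limma adjusted p = 7.87e-04). Its fitted difference of 1.02 ± 0.13 lay at the 2-fold limit, which it did not reach with an offset of 50 or without background correction (0.46 in both), without mock array 1 (0.98) or without 5aza-dC array 1 (0.88). Nor was it reached in the authors' processed values (0.73) or in the deposited columns normalized as they stand (0.95). The other 4 measured genes of the cluster, Trim6, Trim12c, Trim30a and Trim30b, were not detected in any group. The cluster holds close copies, and whether the probes of Trim34a and Trim30d also bind transcripts of neighbours was not tested.

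Trim26, known for acting on the transcription factor IRF3, was detected in every group, at signals far from background. Its levels were 9.73 and 9.78 in mock, 10.90 and 10.83 in 5aza-dC, and 10.01 and 10.06 in recovery. The 3 groups did not overlap, with recovery between the others. It rose by 1.11 ± 0.07 in 5aza-dC (2.16-fold, limma adjusted p = 4.88e-05). When arrays were scaled to the median of all probes, its adjusted p was 0.0614.

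Trim56, which takes part in signalling by the DNA sensors cGAS and STING, stood at 5.15 and 5.10 in mock, 5.81 and 5.86 in 5aza-dC, and 5.59 and 5.32 in recovery. The groups did not overlap, and recovery again lay between. It rose by 0.71 ± 0.10 in 5aza-dC (1.64-fold, limma adjusted p = 0.00131). Trim56, Trim21, Trim34a, Trim26 and Trim30d are the detected genes among the 11 measured of a list of interferon-responsive Trim genes. All 5 rose and 4 were called, in a list written with results of these data known. Trim34a and Trim30d were tested through 5aza-dC alone, so the count of 5 does not stand as support, and the members detected in mock as well were Trim21, Trim26 and Trim56. Its undetected members were Trim6, Trim12c, Trim14, Trim30a, Trim30b and Trim38.

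**Figure D2:**
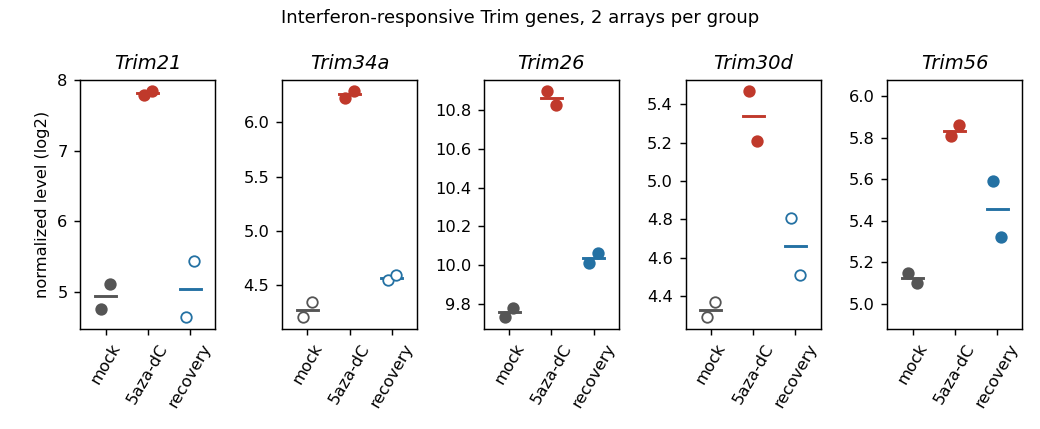
Normalized log2 level (y axis, a separate scale per gene) on each of the 2 arrays of mock (grey), 5aza-dC (red) and recovery (blue) for the 5 detected interferon-responsive Trim genes, with a bar at the group mean and open points where the group did not detect the gene. In each panel both 5aza-dC points lie above all other points, from 7.79 and 7.85 for Trim21 to 5.81 and 5.86 for Trim56.

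The other 5 members that rose in 5aza-dC moved by less than 2-fold. Trim8, which binds the cytokine signalling inhibitor SOCS1, stood at 9.43 and 9.58 in mock and 10.13 and 10.11 in 5aza-dC, and rose by 0.62 ± 0.09 (limma adjusted p = 0.00143). Trim3, a protein with C-terminal NHL repeats best known in brain, stood at 7.43 and 7.40 in mock and 7.73 and 7.82 in 5aza-dC, and rose by 0.36 ± 0.07 (limma adjusted p = 0.00555). Neither gene overlapped between these groups. Trim29, a member without a RING domain that is known in epithelia and in the DNA damage response, was detected in 5aza-dC only and rose at least 1.39-fold, from 4.37 and 4.36 to 4.99 and 5.33 (limma adjusted p = 0.00371). Trim46, which bundles microtubules at the start of the axon, was likewise detected in 5aza-dC only and rose at least 1.38-fold, from 4.53 and 4.58 to 5.19 and 5.10 (limma adjusted p = 0.00147). It was the 1 detected of 3 measured members with the COS-FN3 arrangement of microtubule-binding Trim proteins. Trim44, a member with a deubiquitinase-type zinc finger in place of the RING, rose at least 1.30-fold, from 4.69 and 4.80 to 4.97 and 5.33 (limma adjusted p = 0.0392). That result passed in 5 of 12 alternative tests. It did not pass without 5aza-dC array 2, without either mock array, with an offset of 50, without background correction, after median scaling or with no detection filter.

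Trim16 and Trim27 were the members whose fall passed with each array left out in turn. Trim16 lacks a RING domain and takes part in the clearance of damaged lysosomes. Its levels were 7.37 and 7.11 in mock, 6.25 and 6.41 in 5aza-dC, and 6.67 and 6.82 in recovery, without overlap and with recovery between the others. It fell by 0.91 on the log2 scale, with an SE of 0.12 (1.88-fold, limma adjusted p = 7.90e-04), which stayed short of the 2-fold rule except without mock array 2. Trim27, a ligase that acts on endosomal sorting, stood at 9.16 and 9.01 in mock, 8.47 and 8.44 in 5aza-dC, and 8.91 and 8.85 in recovery. The groups did not overlap, and it fell by 0.63 with an SE of 0.08 (1.55-fold, limma adjusted p = 8.37e-04).

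Trim71 (Lin41), an RNA-binding NHL protein of early embryos and a classical let-7 target, was detected in mock only. It stood at 5.00 and 5.03 in mock, 4.33 and 4.46 in 5aza-dC, and 4.48 and 4.92 in recovery, and fell at least 1.30-fold in 5aza-dC (limma adjusted p = 0.00967). Its mock signal of 80.4 was near background. Trim35, known as a partner of pyruvate kinase, stood at 6.90 and 6.55 in mock and 6.19 and 6.21 in 5aza-dC, and fell by 0.52 with an SE of 0.12 (limma adjusted p = 0.00955). Recovery, at 6.82 and 6.74, overlapped mock.

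Trim39, an inhibitor of the anaphase-promoting complex, stood at 7.78 and 8.0 in mock and 7.46 and 7.49 in 5aza-dC, a difference of -0.41 ± 0.09 (limma adjusted p = 0.00967). Trim32, an NHL protein mutated in a muscular dystrophy, stood at 10.34 and 10.50 in mock and 10.04 and 10.10 in 5aza-dC, a difference of -0.36 ± 0.08 (limma adjusted p = 0.0101). For both genes, recovery lay close to 5aza-dC and below mock. Trim2, an NHL protein that acts on neurofilaments, fell by 0.28 with an SE of 0.08 (limma adjusted p = 0.0242), from 7.26 and 7.15 to 6.86 and 6.98. Trim33, a chromatin-reading ligase of the SMAD pathway, fell by 0.28 with an SE of 0.07 on its brightest probe (limma adjusted p = 0.0146), from 7.92 and 7.85 to 7.62 and 7.59. Of the 8 falls, those of Trim2, Trim32, Trim33, Trim35, Trim39 and Trim71 did not pass without 5aza-dC array 1, which left 2 passing, Trim16 and Trim27. Trim33 also did not pass without 5aza-dC array 2, nor Trim2 without mock array 1.

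**Figure D3:**
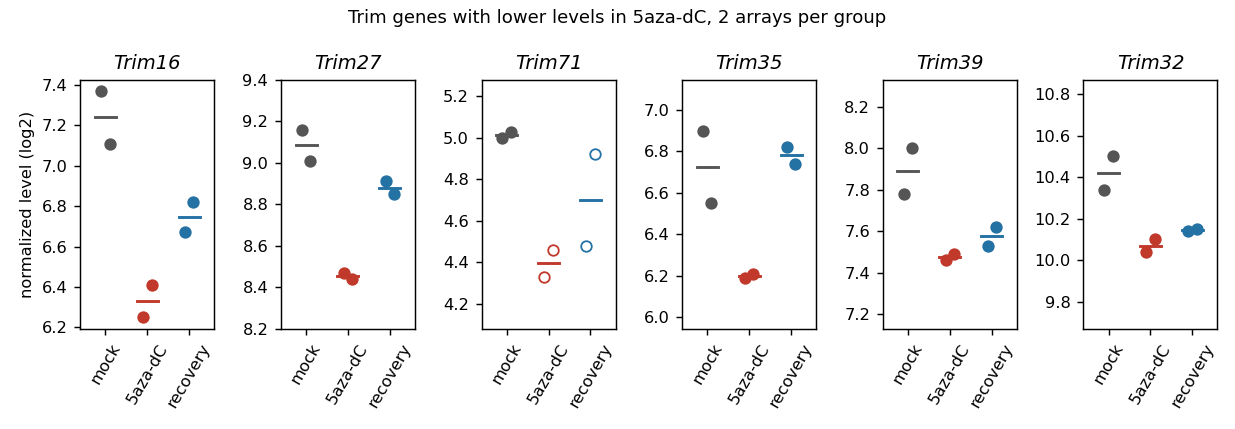
Normalized log2 level (y axis, a separate scale per gene) on each of the 2 arrays of mock (grey), 5aza-dC (red) and recovery (blue) for 6 Trim genes that fell in 5aza-dC, with a bar at the group mean and open points where the group did not detect the gene. Recovery points of Trim35, at 6.82 and 6.74, lie among the mock points, and those of Trim32, at 10.14 and 10.15, lie next to the 5aza-dC points.

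Grouped by structure, all 4 members with NHL repeats were detected, of which Trim3 rose and Trim2, Trim32 and Trim71 fell. Of the 7 measured members whose human genes lie in the extended MHC region, Trim26 rose, Trim27 and Trim39 fell, and the others were not detected. RefSeq places mouse Trim27 on chromosome 13. Trim33 was the 1 detected of 3 measured bromodomain members. None of the 3 measured muscle members and neither of the 2 membrane-anchored members, Trim13 and Trim59, was detected.

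The smallest differences between 5aza-dC and mock were those of Trim23, Trim45 and Trim41. Trim23, which carries an ARF domain, stood at 6.97 and 7.16 in mock and at 7.09 and 7.08 in 5aza-dC, and its difference was 0.02 ± 0.09 (limma adjusted p = 0.87). Trim45, with a filamin domain, differed by -0.06 ± 0.07 (limma adjusted p = 0.484). Trim41 differed by -0.10 ± 0.08 (limma adjusted p = 0.315). Trim69 differed by 0.14 ± 0.09 on the fitted scale (limma adjusted p = 0.222), and 5aza-dC alone detected it. Trim47 differed by -0.45 ± 0.19 (limma adjusted p = 0.0742), with mock arrays at 6.54 and 7.16. That is a spread wider than its difference from 5aza-dC, at 6.42 and 6.38. Without mock array 1 it differed by -0.76 and passed the test.

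Setting recovery against mock shows what differed 14 days after the drug was withdrawn. The labels list 1 mock group and give no recovery time for it, so drug history and time in culture cannot be told apart. Here 5 of the 23 detected Trim genes were higher and 5 were lower, where 22.0% of all genes tested were higher and 18.5% were lower. At the 2-fold rule 0 members were called in either direction, against 1.65% of all genes higher and 1.29% lower. After median scaling none of the 10 passed, with Trim3 at 0.13, Trim8 at 0.07 and Trim16 at -0.79. The median difference was 0.06, against 0.03 over all genes, and the members ranged from -0.50 to 0.43. This comparison and that of 5aza-dC share the mock arrays, so their values stand side by side without a measure of likeness.

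Trim3 was higher in recovery by 0.43 ± 0.07 (limma adjusted p = 0.00531), after 0.36 in 5aza-dC. Its recovery arrays stood at 7.83 and 7.85. Trim8, with a recovery mean of 9.91 and the lower array at 9.83, was higher by 0.41 ± 0.09 (limma adjusted p = 0.0131), after 0.62. These levels lay above both mock arrays for both genes. Trim26 was higher by 0.28 ± 0.07 (limma adjusted p = 0.0227), after 1.11. With arrays scaled to the median of all probes its difference turned to -0.07. Trim56 was higher by 0.33 ± 0.10 (limma adjusted p = 0.0427), after 0.71. Its difference did not pass with an offset of 50, without background correction or after median scaling. Nor did it pass with a detection limit of 0.05 or with no detection filter. With each array left out in turn, the difference of Trim56 ran from 0.19 to 0.46. Trim34a also passed (limma adjusted p = 0.0275), but neither recovery nor mock detected it, so no fold is given. With an offset of 50, after median scaling or with the mean of all detected probes, Trim34a did not pass. Trim21 did not pass, at 0.11 ± 0.25 (limma adjusted p = 0.759). Trim30d, Trim29 and Trim46, undetected in both groups, did not pass either.

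On the lower side, Trim16 differed by -0.50 ± 0.12 (limma adjusted p = 0.016), after -0.91 in 5aza-dC. Trim33 differed by -0.31 ± 0.07 (limma adjusted p = 0.0153), after -0.28. Its recovery arrays stood at 7.57 and 7.58, below both mock arrays. Trim39 differed by -0.31 ± 0.09 and Trim32 by -0.28 ± 0.08 (limma adjusted p = 0.0379 and 0.0354). Trim23 was lower by 0.30 in recovery (difference -0.30 ± 0.09, limma adjusted p = 0.0308), after 0.02 in 5aza-dC, with recovery arrays at 6.78 and 6.75. The calls against mock rested on few arrays. The number of members passing went from 10 to 2 without recovery array 1, to 4 without recovery array 2, and to 5 without either 1 of the 5aza-dC arrays.

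Recovery was also set against 5aza-dC directly, with the same arrays. The comparison of 5aza-dC with mock uses the same 5aza-dC arrays, so a gene high or low on these tends to show opposite directions. Of the 23 members, 8 were lower and 4 were higher in recovery, where 21.0% of all genes were lower and 21.6% were higher. Called 2-fold lower were 2 members, Trim21 and Trim34a, against 4.41% of all genes, and 0 members were called higher, against 0.880%. Of the 15 members detected in all 3 groups, 0 were called. The median difference of the members was -0.03, against 0.02 over all genes.

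Trim21 was at least 6.66-fold lower in recovery than in 5aza-dC (limma adjusted p = 2.93e-04), and its recovery signal of 74.9 did not pass detection, with a p-value of 0.0219. Trim34a was at least 2.84-fold lower (limma adjusted p = 2.18e-05). Trim26 differed by -0.83 ± 0.07 (1.77-fold lower, limma adjusted p = 2.95e-04), and Trim30d was at least 1.46-fold lower (limma adjusted p = 0.00665). With Trim56, at -0.39 ± 0.10 (limma adjusted p = 0.0232), all 5 detected interferon-responsive members were lower in recovery than in 5aza-dC. For Trim34a and Trim30d, which were tested through 5aza-dC alone, that direction was largely set by the detection filter. Trim29 was at least 1.26-fold and Trim46 at least 1.27-fold lower (limma adjusted p = 0.0458 and 0.0161). Trim23 differed by -0.32 ± 0.09 (limma adjusted p = 0.0237).

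The 4 members higher in recovery than in 5aza-dC were Trim35 at 0.58 ± 0.12 (limma adjusted p = 0.00919), Trim27 at 0.43 ± 0.08 (0.00691), Trim16 at 0.41 ± 0.12 (0.029) and Trim2 at 0.26 ± 0.08 (0.0413). All 4 had fallen in 5aza-dC, which through the shared 5aza-dC arrays is no separate support. None of the 4 passed after median scaling, and Trim35 did not pass with the mean of all detected probes. Trim71 differed by 0.31 ± 0.14 (limma adjusted p = 0.13) and was undetected in both groups. Trim3, Trim8, Trim32, Trim33 and Trim39 differed from 5aza-dC by between -0.21 and 0.10, and none of these passed. Without 5aza-dC array 1 or without 5aza-dC array 2, 6 members passed in place of 12, and without recovery array 2 there were 7.

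Several genes carry more than 1 probe, which lets their results be read again on the same arrays. The 59 members had 110 probes, of which 33 were detected, and 7 members had more than 1 detected probe. In 6 of the 7, all detected probes had the same sign in 5aza-dC minus mock. For Trim21 the brightest probe gave 2.88, a second detected probe, undetected in mock, was at least 2.66-fold higher, and another, not detected in any group, gave -0.01. Both Trim34a probes, each undetected in mock, were higher by at least 2.99-fold and 3.02-fold. For Trim27 the brighter probes gave -0.63 and -0.77, and the dimmest, undetected in 5aza-dC, was at least 3.51-fold lower. Both Trim32 probes were lower, at -0.36 and -0.48. Those of Trim35 gave -0.52, -0.31 and -0.19, and those of Trim23 gave 0.02 and 0.21. Trim33 was the exception. Its brightest probe gave -0.28 and its other detected probes gave 0.34 and 0.24, so the direction of Trim33 in 5aza-dC depended on the probe. Against mock in recovery, all 3 detected Trim33 probes were negative, at -0.31, -0.19 and -0.28.

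**Figure D4:**
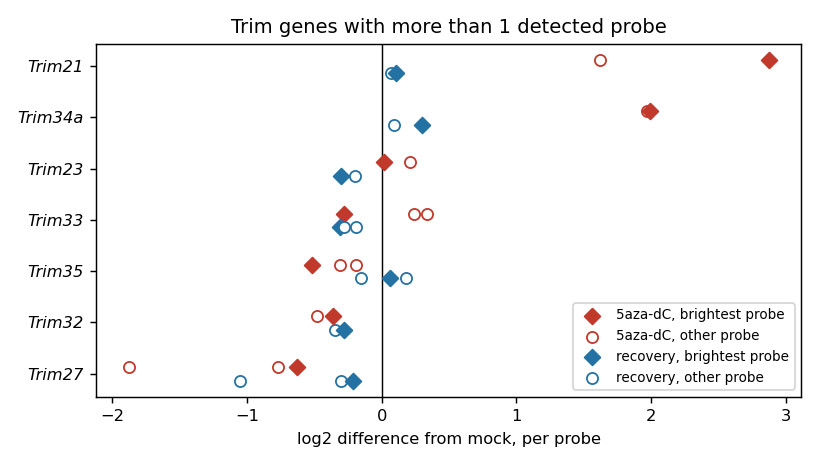
Log2 difference from mock (x axis) of each detected probe of the 7 Trim genes with more than 1, in 5aza-dC (red) and recovery (blue), with diamonds for the brightest probe and open circles for the others. The 5aza-dC probes of Trim33 fall on both sides of 0, from -0.28 to 0.34, and those of Trim21 lie at 1.62 and 2.88, the former against an undetected mock level.

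Genes that act with interferon-responsive Trim proteins were read from lists by function, chosen with earlier results of these data known. Of 9 measured interferon signalling genes 7 were detected, and 5 of them rose in 5aza-dC, where 30.1% of all genes tested rose. The transcription factors Irf7 and Stat2, undetected in mock, rose at least 5.40-fold and 5.21-fold. The transcription factors Irf9 and Irf1 rose by 2.80 ± 0.09 and 1.86 ± 0.07 and the receptor kinase Tyk2 by 0.62 ± 0.09, with limma adjusted p from 3.25e-06 to 0.00163 over these 5 genes. The interferon receptor subunit Ifnar2 and Irf3 did not pass. Of 8 measured antiviral sensing genes 7 were detected and 5 rose, against the same 30.1% of all genes. Among the 5, Ddx58 alone was called, the RNA sensor RIG-I, undetected in mock and at least 4.99-fold higher (limma adjusted p = 6.23e-05). Ikbke, Sting1, Tbk1 and Cgas rose by less than 2-fold, at 0.67, 0.64, 0.52 and 0.24, and Mavs and Traf6 did not pass. Irf7, Stat2 and Ddx58 were tested through 5aza-dC alone, so the counts of both lists do not stand as support. In recovery against mock, Irf9 differed by 0.13 ± 0.09 and did not pass, and Irf7 was undetected in both groups. Tyk2 (0.63 ± 0.09), Irf1 (0.29 ± 0.07), Ikbke (0.48 ± 0.08), Tbk1 (0.31 ± 0.08) and the E2 gene Ube2l6 (0.38 ± 0.11) were higher, with limma adjusted p from 0.00319 to 0.0283, and Cgas was lower (-0.22 ± 0.07, limma adjusted p = 0.0443). Of 9 detected ubiquitin E2 genes, 1 rose and 3 fell in 5aza-dC, where 30.1% of all genes rose and 27.1% fell. Ube2l6, the E2 that also carries the ubiquitin-like modifier ISG15, rose by 2.74 ± 0.11 (limma adjusted p = 5.80e-06), and Ube2e2, Ube2e1 and Ube2n differed by -0.41, -0.38 and -0.38.

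Markers of cell types were read on the same arrays. All 8 fibroblast markers were detected in every group. Of these, 4 fell in 5aza-dC, where 27.1% of all genes fell. S100a4 alone was called, at -1.37 ± 0.12 (limma adjusted p = 1.58e-04). Col1a1, Col1a2 and Fn1 differed by -0.64, -0.47 and -0.32, and Col3a1, Vim, Thy1 and Pdgfrb did not pass. In recovery against mock, Pdgfrb (0.86), Col1a1 (0.45) and Vim (0.41) were higher and S100a4 (-0.74) was lower. Of all genes, 22.0% were higher and 18.5% lower there. Of 6 measured macrophage and blood markers Cd14 alone was detected, at 0.09 ± 0.07 in 5aza-dC minus mock (limma adjusted p = 0.32), and the summed signal of the list ran from 559.5 to 652.9. Of 5 epithelium markers 3 were detected, and the keratins Krt14 and Krt8 rose in 5aza-dC by 4.38 and 4.05 and Krt18, undetected in mock, at least 2.81-fold, while the summed signal of the list went from 399.5 (mock) to 2357.0 (5aza-dC) and stood at 506.1 after recovery. In recovery Krt14 and Krt8 were still higher than in mock, by 1.46 ± 0.11 and 1.11 ± 0.10 (limma adjusted p = 2.81e-04 and 6.15e-04). Of 6 measured skeletal muscle markers Tnnt1 alone was detected, though not in mock, and it rose at least 3.15-fold in 5aza-dC and was at least 1.53-fold higher in recovery (limma adjusted p = 5.37e-06 and 3.95e-04). The part of these shifts in the Trim results was not tested.

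The remaining 36 members were not detected in any group, with deposited signals between 51.8 and 70.5. Closest to detection were Trim54, a muscle ring finger protein, with a detection p-value of 0.0235 in 5aza-dC, and Trim37, a ligase with a MATH domain, with 0.0406 in mock. Trim65 and Trim62 followed, with lowest p-values of 0.0427 in recovery and 0.0507 in 5aza-dC. At the other end Trim7 had a lowest p-value of 0.735. The undetected members include Trim24 and Trim66, chromatin-reading relatives of Trim33, as well as Trim42, Trim43a and Trim43b, which are known from germ cells or early embryos. Such values show that a signal was not above background on these arrays, and not that a transcript was absent. By group, mock detected 17 members, 5aza-dC 22 and recovery 16, and 15 were detected in all 3, where the counts over all named genes were 8155, 8691 and 8068. A RefSeq list by the same rule holds 66 genes, of which 7 had no probe listed here, Trim5, Trim12a, Trim30c, Trim34b, Trim43c, Trim55 and Trim67.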

How the data were processed

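Total RNA of NIH/3T3 cells was measured on Illumina bead arrays, with 1 deposited column per group. TRIZOL extraction, amplification and biotin labelling are recorded in the labels' protocols. One deposited table gives signal intensity before normalization and a detection p-value for 45281 probes, per the file headers. In the other deposited table the authors had subtracted background from the intensity and scaled it, as its values show (mean 224.5 per group, with 38.54% to 40.23% of the values below 0). The software that made them was not stated, and the files hold 0 columns of other samples.

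Detection p-values move in steps that fit the mean of 2 arrays with 936 negative controls each. The 2 arrays of each column were solved from both tables, using probes with p-values between 0.05 and 0.97. The misfit SD was 0.001189, 0.00117 and 0.001836 (mock, 5aza-dC, recovery), and 0.03811, 0.02879 and 0.02951 if 1 array was assumed. On simulated columns the true scale ratio of 1.7216, 1.2099 and 1.1737 came back as 1.7219, 1.2100 and 1.1738. The recovered pairs correlated with r = 0.9957, 0.9976 and 0.9968 over all probes, against 0.9759 to 0.9787 between mock and 5aza-dC.

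The 6 arrays were corrected and normalized with neqc of limma 3.58.1 in R 4.3.3 (normexp from detection p-values, offset 16, quantile, log2). Genes were named from the platform annotation (34885 probes with 1 symbol, 18 with several and left out, 10378 not listed), and 34807 matched by Entrez number, with 0 renamed. The brightest probe stood for a gene. One limma fit (lmFit, eBayes) over all 3 groups and the 8981 genes detected at p below 0.01 in at least 1 group had 3 residual and 3.71 prior degrees of freedom. Benjamini-Hochberg adjustment ran within each comparison at 0.05, and called genes also differed by at least 1 on the log2 scale. The fit was tested on simulated data. The number of arrays limits the precision.

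Members and lists were chosen with earlier results of these data known. The text names every member called in a comparison, every detected member of the Trim lists and the 3 smallest differences, and the other members are accounted for beside them. The Trim lists cover interferon-responsive members, the chromosome 7 cluster, the MHC region, NHL, COS-FN3, muscle, bromodomain, membrane, single-class C-terminal (Trim37, Trim23 and Trim45) and early embryo or germ cell members. Promoters are from RefSeq (GRCm38.p6), and 13 members without a listed promoter are named only. Alternatives changed the offset, the background correction, the scaling, the detection filter, the probe choice, the fold minimum and the arrays used.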

Additional observations from a re-analysis of the deposited data

How the results depend on the processing

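Without the 2-fold rule, the numbers called were 18 members and 5136 genes in 5aza-dC minus mock, 10 and 3634 in recovery minus mock, and 12 and 3822 in recovery minus 5aza-dC. With an offset of 50, 444, 109 and 245 of all genes were called in these comparisons (main counts 821, 264 and 475), and 1 member in recovery minus 5aza-dC. Without background correction there were 396, 91 and 222 genes, and again 1 member. Scaled to the median of all probes, 4, 0 and 2 members and 993, 360 and 536 genes passed limma. The median differences of the members were then -0.09, -0.16 and -0.19, and those of all genes -0.11, -0.25 and -0.15. The split of the passing genes moved from 2703 higher and 2433 lower to 584 and 409, from 1977 and 1657 to 68 and 292, and from 1940 and 1882 to 30 and 506. With genes detected in all 3 groups only, 1 member was called and 11 passed limma in 5aza-dC minus mock (4 higher and 7 lower, against 10 and 8 in the main setting), and 0 members and 292 genes were called in recovery minus 5aza-dC. The member medians were then -0.28, -0.09 and 0.06, over 15 members. Averaging all detected probes gave medians of 0.11 in 5aza-dC minus mock and -0.08 in recovery minus 5aza-dC. The authors' processed values gave 481 genes called in recovery minus mock and a member median of -0.07 in recovery minus 5aza-dC. With no detection filter, 6 members passed in recovery minus mock, and the member median of recovery minus 5aza-dC was 0.00. Apart from its construction, the cause of each of these shifts was not tested.

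Leaving out each array in turn, where the lone array of a group is assumed to vary like the others, 3 to 5 members and 821 to 927 genes were called in 5aza-dC minus mock, 0 members and 243 to 374 genes in recovery minus mock, and 2 members and 472 to 499 genes in recovery minus 5aza-dC. The members passing limma numbered 12 to 18, 2 to 8 and 6 to 12, the genes passing 3691 to 5084, 2120 to 3807 and 2242 to 4498, and the member medians ran from -0.03 to 0.11, 0.02 to 0.09 and -0.04 to 0.00. Trim21 kept a positive difference from mock in 5aza-dC in every setting, from 1.85 to 3.72, as did Trim34a (1.03 to 2.06), Trim26 (0.91 to 1.14) and Trim30d (0.46 to 1.15). Direction reversed in Trim33 (0.10 in 5aza-dC minus mock with the mean of all detected probes) and in Trim26 (-0.07 in recovery minus mock after median scaling). No paired analysis was possible because each group has 1 deposited column and the recovered arrays carry no replicate number in the labels. Signals near background limit what can be said of Trim21 in mock and of the 36 undetected members.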
